A study of Mus musculus with 26 samples.

Results

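The goblet cell mucus genes are 9 genes whose products build the mucus of the colon or make the cells that secrete it: *Muc2*, *Fcgbp*, *Zg16*, *Clca1*, *Tff3*, *Agr2*, *Atoh1*, *Spdef* and *Spink4*. They were taken by symbol, and the estimated counts of all transcripts of a gene were summed. All 9 were present among 35975 genes, and all 9 were among the 17063 genes that passed the expression filter. The lowest value of any of them in any sample was 7.27 CPM (counts scaled to a common library total, normalised for library composition), for *Atoh1*, so no gene entered through a single group.

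The samples were 26 polyA RNA libraries of colon from wild type C57BL/6J males that were about 10 weeks old at the start. The mice ate a standard diet or a diet with GW3965, a synthetic agonist of the liver X receptors (LXR), nuclear receptors that respond to oxysterols. They received azoxymethane (AOM), a carcinogen, and then dextran sulfate sodium (DSS), which injures the colonic epithelium, in the drinking water, in up to 3 cycles. Colons were taken 22, 43 or 70 days after AOM, with 3 samples per diet and day. The paper states that biopsies for RNA came from distal colon, at the sites of tumours. It reports no macroscopic tumours at day 22, tumours nearly only with the standard diet at day 43, and tumours with both diets at day 70. The tumour content of each sample was not tested. The day 0 groups, 4 samples per diet, received neither AOM nor DSS and were taken after 22 or 43 days of their diet, 2 samples each. The comparisons ask how the mucus genes differ between uninjured colon and each stage of injury and tumour formation, and whether the diet with the agonist alters this.

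Total estimated counts per sample ran from 18195345 to 41522204, with a median of 20424702. Values are given below in the order of replicates. For day 0 the 2 samples after 22 days of diet come first and the 2 after 43 days follow. The day 0 samples of a diet carry 1 cage letter (E or F), and those of days 22 and 43 share another (A or B). Diet and cage therefore cannot be told apart at days 0, 22 and 43, whereas at day 70 each of the 6 samples carries a cage letter of its own (G to L). No cage letter of day 0 occurs at a later day, so day and cage cannot be told apart in any comparison with day 0. In 1 sample the labels conflict: the second GW3965 diet day 0 sample after 43 days has a title and cage of the GW3965 diet and a standard diet entry. It was kept with the GW3965 diet. It held 151 CPM of *Abca1*, 76.5 CPM of *Abcg1* and 495 CPM of *Srebf1*, 3 known LXR target genes, each above every standard diet sample.

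The diet labels were checked with those 3 genes. *Abca1*, a cholesterol exporter, stood at 18.5 to 45.1 CPM in the 13 standard diet samples and at 91.2 to 288 CPM in the 13 GW3965 diet samples. *Abcg1*, another cholesterol exporter, stood at 7.38 to 26.8 and 71.4 to 179 CPM. *Srebf1*, a regulator of lipid synthesis, stood at 68.8 to 181 and 259 to 611 CPM. For each of these genes every GW3965 diet sample lay above every standard diet sample, and the edgeR adjusted *P* at each day lay between 3.59e-07 and 0.0328. Of the 7 listed LXR target genes, 5, 4, 5 and 6 were called higher with GW3965 at days 0, 22, 43 and 70, where 0.0293, 0.135, 0.0293 and 1.85% of all genes were called.

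Goblet cells store densely packed mucin in granules and release it onto the surface of the colon, where it unfolds into a gel that keeps bacteria away from the epithelium. Their formation needs the transcription factor Atoh1, which Notch signalling represses in neighbouring cells, and their maturation needs Spdef further downstream. Loss of goblet cells and thinning of the mucus are known features of DSS colitis.

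Several samples stood apart in other measures before any mucus gene was compared. In the standard diet day 43 samples, ribosomal protein genes took 16.7, 14.4 and 18.6% of counts, and the RNA integrity numbers were 2.6, 8.4 and 7.8. In the GW3965 diet day 43 samples the shares were 13.1, 17.6 and 10.0% and the integrity numbers were 8, 6.8 and 9.3. Outside day 43 the ribosomal share ran from 3.96 to 10.7%, and no integrity number was below 9.1. The test therefore carried the ribosomal share as a term. Since every day 43 sample lies above every day 0 sample in this share, day 43 and the ribosomal share cannot be told apart, and the day 43 calls depend on that term.

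Markers of a stratified, keratinised epithelium, which the colon lacks above the anal canal, also differed between samples. Their summed level was 4.60 ± 1.30 TPM (SD, n = 4) in the standard diet day 0 samples, where TPM is a level per transcript length. It was 2338, 3122 and 3028 TPM in the standard diet day 70 samples and 12559, 6.00 and 9731 TPM in the GW3965 diet day 70 samples. The second GW3965 diet day 70 sample was thus at the day 0 level, and the other 2 were the highest of the 26 samples. *Krt13* was the most abundant of the 8 genes. *Krt6a* was listed at 0 in all 8 day 0 samples and reached 660 to 861 CPM in the standard diet day 70 samples, against 0.258 to 3108 CPM with GW3965.

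**Figure D1:**
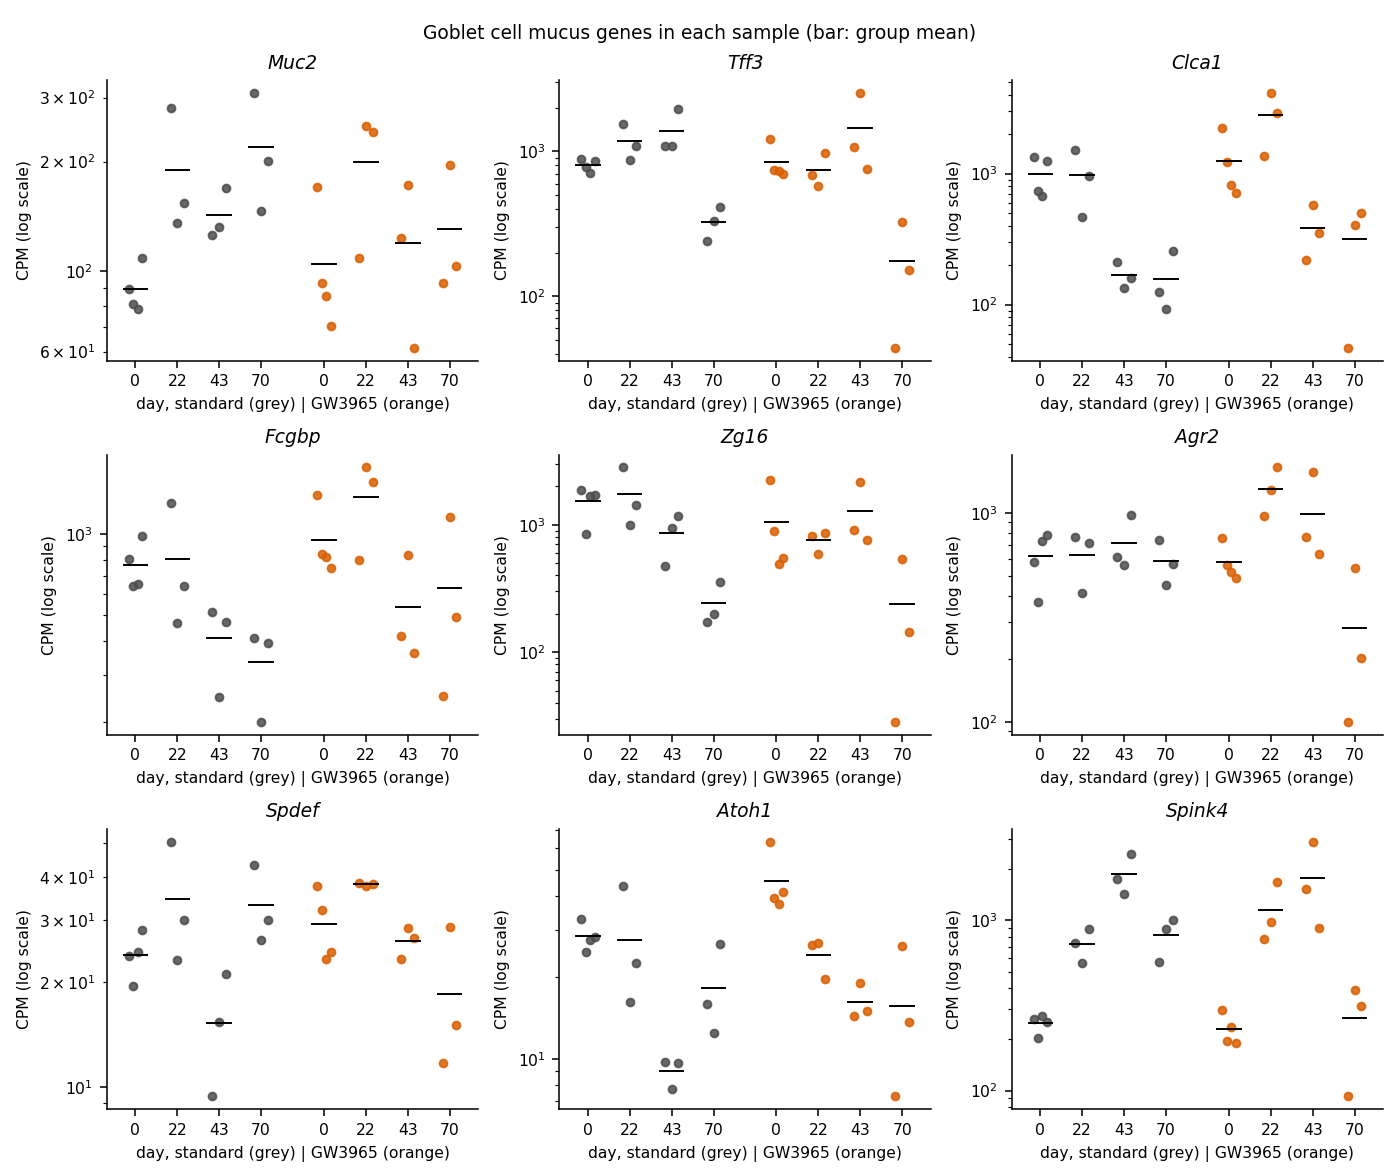
CPM (log scale) of each of the 9 genes in every sample, by day, with the standard diet in grey, the GW3965 diet in orange and a bar at each group mean (n = 4 at day 0, n = 3 otherwise). *Spink4* is above its day 0 range in every day 43 sample of both diets, *Clca1* is below it, and the first GW3965 diet day 70 sample is the lowest of the 26 in 6 genes.

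Levels per length at day 0 came first, because only they can be compared between genes. For *Muc2* and *Fcgbp* these levels include transcripts that cover only parts of the gene, described below. The places of both genes in the order, at every day, depend on those transcripts. In the standard diet group *Zg16*, a lectin that binds Gram-positive bacteria, was at 4201 ± 1386 TPM (SD, n = 4), and *Tff3*, a trefoil peptide of epithelial repair, was at 3825 ± 486 TPM (SD, n = 4). *Spink4*, a small secreted peptide of the Kazal protease inhibitor family, followed at 1905 ± 306 TPM (SD, n = 4). *Agr2*, a protein disulphide isomerase of the endoplasmic reticulum needed to make Muc2, was at 1372 ± 455 TPM (SD, n = 4). *Clca1*, a secreted metalloprotease that cleaves Muc2 in the gel, was at 354 ± 133 TPM (SD, n = 4). *Fcgbp*, a large mucus protein with von Willebrand D domains, was at 273 ± 71.7 TPM (SD, n = 4). *Muc2*, the mucin that forms the gel, was at 68.7 ± 16.4 TPM (SD, n = 4). The transcription factors were lowest, with *Spdef* at 18.7 ± 2.90 TPM (SD, n = 4) and *Atoh1* at 18.1 ± 2.67 TPM (SD, n = 4). The ranges of neighbours overlapped for *Zg16* and *Tff3*, *Spink4* and *Agr2*, *Clca1* and *Fcgbp*, and *Spdef* and *Atoh1*, and for no other neighbours in this order.

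With the GW3965 diet at day 0 the order began with *Tff3* at 4136 ± 984 TPM (SD, n = 4) and *Zg16* at 2897 ± 2084 TPM (SD, n = 4). It then ran *Spink4*, *Agr2*, *Clca1*, *Fcgbp*, *Muc2*, *Atoh1* and *Spdef*, and the last 2 stood at 30.0 ± 6.06 TPM (SD, n = 4) and 24.7 ± 5.76 TPM (SD, n = 4). The order of mean levels differed at later days. With the standard diet *Spink4* was first at day 43 with 7079 TPM and at day 70 with 6735 TPM, where *Tff3* was at 1638 TPM, *Agr2* at 1352 TPM and *Zg16*, first at day 0, followed at 689 TPM. *Clca1* stood below *Muc2* at day 43 (27.6 and 42.7 TPM) and at day 70 (57.2 and 149 TPM), the reverse of day 0. At these days *Spink4* was first and *Clca1* was below *Muc2* in every standard diet sample. *Agr2* was above *Tff3* in the first standard diet day 70 sample (1732 and 1192 TPM). With GW3965 *Clca1* was above *Muc2* in all 3 samples at day 43 (means of 72.2 and 38.4 TPM). At day 70 it was above in 1 sample and below in 2 (means of 121 and 97.2 TPM). *Spink4* was first with this diet at day 22 with 6411 TPM, beside 2616 TPM for *Tff3*, and at days 43 (6934 TPM) and 70 (2229 TPM). The summed level of the 9 genes was 12036 ± 2531 TPM (SD, n = 4) at day 0 and 10815 ± 2459 TPM (SD, n = 3) at day 70 with the standard diet. With GW3965 it was 11140.0 ± 3925 TPM (SD, n = 4) and 5009 ± 3706 TPM (SD, n = 3), and the 3 day 70 samples stood at 1518, 8899 and 4610.2 TPM.

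The level of *Muc2* rests on transcripts that cover only parts of the gene. The gene (ENSMUSG00000025515.15) lies at chr7:141690340-141754693 on the plus strand of GRCm38, and its 8 annotated transcripts are 241 to 2926 bases long. The transcript Muc2-201, 2032 bases long and ending 3 bases from the 3′ end of the gene, held 29.2, 23.4, 20.0 and 24.7% of the TPM of *Muc2* in the standard diet day 0 samples. In the day 43 samples it held 96.2, 83.6 and 88.0%, and the highest of these shares belonged to the sample with an integrity number of 2.6. All 3 day 43 samples were above all 4 day 0 samples. Another transcript, 2926 bases long and ending with the gene, held 33.2 ± 3.46% (SD, n = 4) at day 0, 38.9 ± 0.107% (SD, n = 3) at day 22 and 9.97 ± 5.61% (SD, n = 3) at day 43. The share of Muc2-201 was 40.8 ± 9.85% (SD, n = 3) at day 70, and with GW3965 it was 33.2 ± 8.58% (SD, n = 4) at day 0, 74.3 ± 17.5% (SD, n = 3) at day 43 and 34.0 ± 15.9% (SD, n = 3) at day 70.

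*Fcgbp* (ENSMUSG00000047730.17, chr7:28071236-28120862, plus strand) also differed in the shares of its transcripts. Its coding transcript Fcgbp-201, 7928 bases long and spanning the gene, held 34.3 ± 6.25% (SD, n = 4) of the TPM of the gene at day 0 with the standard diet and 1.04 ± 0.444% (SD, n = 3) at day 43. Fcgbp-202, a processed transcript of 931 bases that ends 1 base from the 3′ end, held 36.3 ± 6.39% (SD, n = 4) and 78.8 ± 14.5% (SD, n = 3). At day 70 the shares were 24.9 ± 9.91% (SD, n = 3) and 43.1 ± 3.90% (SD, n = 3). At day 22 Fcgbp-201 held 16.97 ± 5.47% (SD, n = 3) with the standard diet and 10.5 ± 5.95% (SD, n = 3) with GW3965, and Muc2-201 held 39.5 ± 6.76% (SD, n = 3) and 55.5 ± 13.7% (SD, n = 3) of its gene. The mean shares of Fcgbp-201 and Muc2-201 thus differed from day 0 at day 22, when the integrity numbers were 9.1 to 10, and further at day 43, when they were 2.6 to 9.3. The part of RNA integrity in this was not tested.

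The promoters of *Muc2* and *Fcgbp* are shown because, of the windows available for the 9 genes, they held a motif searched for. RefSeq gave a promoter (GRCm38.p6, 250 bases before to 50 after the start) for 5 of the 9 genes: *Muc2*, *Fcgbp*, *Agr2*, *Spdef* and *Atoh1*. Both strands were searched for CAGCTG and CAGATG, which are E-boxes of the kind bound by basic helix-loop-helix factors such as Atoh1, and for CCGGAT, a core bound by ETS factors such as Spdef. The *Muc2* window at chr7:141690090-141690389 and the *Fcgbp* window at chr7:28070986-28071285, both on the plus strand, each held CAGCTG 1 time, shown in capitals.
Muc2: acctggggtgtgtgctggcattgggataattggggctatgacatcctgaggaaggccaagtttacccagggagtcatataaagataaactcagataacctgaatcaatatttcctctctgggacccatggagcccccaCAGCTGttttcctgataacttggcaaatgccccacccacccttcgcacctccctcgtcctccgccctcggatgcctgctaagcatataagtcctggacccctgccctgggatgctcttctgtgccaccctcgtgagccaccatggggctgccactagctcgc
Fcgbp: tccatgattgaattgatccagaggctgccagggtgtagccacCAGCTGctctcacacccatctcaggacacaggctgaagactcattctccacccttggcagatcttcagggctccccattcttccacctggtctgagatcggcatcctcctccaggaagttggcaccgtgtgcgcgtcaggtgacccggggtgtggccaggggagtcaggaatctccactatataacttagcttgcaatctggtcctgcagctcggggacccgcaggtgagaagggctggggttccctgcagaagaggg
The windows of *Agr2*, *Spdef* and *Atoh1* did not hold it, and CAGATG and CCGGAT were in none of the 5. Among 32544 promoters of this length, 16.4% held CAGCTG, 17.1% held CAGATG and 6.08% held CCGGAT.

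At day 22, *Spink4* was higher than at day 0 with both diets, and the other 8 genes did not pass the test. With the standard diet *Spink4* was at 263, 203, 276 and 255 CPM in the day 0 samples and at 732, 559.8 and 893 CPM in the day 22 samples. With GW3965 it was at 297, 197, 236 and 189 CPM and at 774, 981 and 1684 CPM. Every day 22 sample of either diet lay above every day 0 sample of its diet. The gene rose with the standard diet (log2 fold change 1.29, SE 0.32, edgeR adjusted *P* = 0.0178) and with GW3965 (log2 fold change 1.81, SE 0.34, edgeR adjusted *P* = 0.00173). With the standard diet the call was lost without the first day 22 sample (log2 fold change 1.16, adjusted *P* = 0.0600) or the third (1.09, adjusted *P* = 0.109). It was also lost when only the day 0 samples after 22 days of diet were used (1.34, adjusted *P* = 0.0848).

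This was 1 of 9 genes called with the standard diet, where 7.75% of all tested genes were called and 6.19% were called higher. With GW3965 it was again 1 of 9, where 12.5% of all genes were called and 9.08% were called higher. The median log2 fold change of the 9 genes was 0.10 with the standard diet and 0.44 with GW3965, beside 0.00 and 0.02 over all genes. DESeq2 also called 1 of 9 for each diet, where it called 2030 and 2933 of 17063 genes.

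Other genes with day 22 values apart from day 0 did not pass the adjustment. *Muc2* was at 89.2, 81.2, 78.5 and 108 CPM in the standard diet day 0 samples and at 281, 135 and 154 CPM at day 22. By CPM these groups did not overlap (log2 fold change 1.01, SE 0.39, edgeR adjusted *P* = 0.125), but by TPM 2 of the 3 day 22 samples lay within the day 0 range. Fitted on the samples of those 2 groups alone, the gene was called (1.56, adjusted *P* = 0.0465), as it was on a library scale taken from pan-epithelial genes (1.36, adjusted *P* = 0.0436). *Agr2* was at 759, 562, 520.3 and 485 CPM in the GW3965 diet day 0 samples and at 959.9, 1288 and 1648 CPM at day 22. All 3 day 22 samples were higher, by TPM as well (log2 fold change 0.91, SE 0.44, edgeR adjusted *P* = 0.19), and the same 2 alternatives called it (0.87, adjusted *P* = 0.0369, and 1.27, adjusted *P* = 0.0271). *Atoh1* was at 63.5, 39.2, 37.5 and 41.5 CPM at day 0 with GW3965 and at 26.3, 26.7 and 19.7 CPM at day 22. All 3 day 22 samples were lower, by TPM as well (log2 fold change −0.87, SE 0.38, edgeR adjusted *P* = 0.145). *Spdef* was at 38.4, 37.7 and 38.1 CPM at day 22, just above its day 0 range of 23.2 to 37.6 CPM (log2 fold change 0.44, SE 0.32, edgeR adjusted *P* = 0.414), and overlapped with day 0 by TPM. *Tff3* with GW3965 was apart by TPM alone, with at most 2776 TPM at day 22 and at least 3415 TPM at day 0.

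At day 43 edgeR called none of the 9 genes with either diet once the ribosomal share was a term, although values of several genes lay apart from day 0. *Spink4* was at 1761, 1423 and 2462 CPM in the standard diet samples and at 1528, 2906 and 900.0 CPM in the GW3965 diet samples. All 6 values exceed the highest day 0 value, 297 CPM. *Clca1* was at 1348, 731, 675 and 1249 CPM at day 0 and at 209.8, 133 and 159.9 CPM at day 43 with the standard diet. With GW3965 it was at 2224, 1221, 812 and 709 CPM and at 219, 573 and 353 CPM. The day 43 values of *Clca1* lay below all day 0 values of the same diet. *Atoh1* was at 32.8, 24.9, 27.4 and 28.3 CPM and then 9.73, 7.76 and 9.65 CPM with the standard diet, and at 14.5, 19.01 and 14.99 CPM at day 43 with GW3965. Each day 43 value of *Atoh1* was again below the day 0 values of its diet.

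By CPM, *Tff3*, *Muc2* and *Fcgbp* did not overlap with day 0 either in the standard diet samples. *Tff3* was at 884, 784, 704 and 856 CPM at day 0 and at 1084, 1095 and 1978 CPM at day 43. *Muc2* was at 126, 132 and 169 CPM at day 43, against 78.5 to 108 CPM at day 0. *Fcgbp* was at 514, 248 and 472 CPM, against 639.5 to 978 CPM. By CPM *Tff3* and *Muc2* were thus higher and *Fcgbp* lower in all 3 samples, but TPM differ. *Muc2* was at 39.7, 42.3 and 46.1 TPM at day 43, below all day 0 values of 55.4 to 92.5 TPM, and *Tff3* and *Fcgbp* overlapped with day 0 by TPM. With GW3965 these 3 genes overlapped with day 0 by CPM.

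With the ribosomal term, *Spink4* had a log2 fold change of 0.73 (SE 0.67, edgeR adjusted *P* = 0.912) with the standard diet and 1.29 (SE 0.52, adjusted *P* = 0.260) with GW3965. *Clca1* had −3.13 (SE 1.31, adjusted *P* = 0.518) and −2.12 (SE 1.09, adjusted *P* = 0.413), and *Atoh1* had −1.44 (SE 0.77, adjusted *P* = 0.695) and −1.35 (SE 0.63, adjusted *P* = 0.348). Without the term all 3 genes were called with both diets. *Spink4* then had 2.92 (adjusted *P* = 8.25e-06) with the standard diet and 2.95 (2.8e-05) with GW3965. *Clca1* had −2.58 (0.00217) and −1.70 (0.0305), and *Atoh1* had −1.65 (0.000706) and −1.49 (0.00217). With the RNA integrity number as the term the same 3 genes were called, with *Spink4* at 2.67 (0.000955) and 2.78 (0.000271), *Clca1* at −2.90 (0.0236) and −1.88 (0.0389), and *Atoh1* at −1.66 (0.0204) and −1.50 (0.00592).

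The number of genes called at this day depended on the term. With it, 0 of 9 genes and 0% of all genes were called with the standard diet. Of the 9, 1 had an unadjusted *P* under 0.05, beside 8.01% of all genes. DESeq2 called 0 of 9 and 202 of 16401 genes. With GW3965, 0 of 9 genes and 0.932% of all genes were called. Of the 9, 2 had an unadjusted *P* under 0.05, beside 13.6% of all genes. DESeq2 called 0 of 9 and 584 of 16401 genes. Without the term, 9374 and 7719 of the 17063 genes were called, and with the RNA integrity number in its place 6680 and 7914. The median log2 fold change of the 9 genes was −1.04 with the standard diet and −0.41 with GW3965, beside 0.06 and 0.03 over all genes. These are values fitted with the term. For some genes the mean CPM differ in the other direction. With the standard diet *Tff3* had a fitted value of −1.04 and a mean CPM 1.72 times that of day 0, *Muc2* had −0.02 and 1.59 times, and *Agr2* had −0.89 and 1.17 times. The mean TPM at days 0 and 43 were 3825 and 3147 for *Tff3*, 68.7 and 42.7 for *Muc2*, and 1372 and 745 for *Agr2*. With GW3965 *Tff3* had −0.63 and 1.72 times, *Zg16* −0.41 and 1.22 times, *Muc2* −0.36 and 1.14 times, and *Agr2* −0.08 and 1.70 times. Their mean TPM at days 0 and 43 were 4136 and 3491, 2897 and 1779, 73.9 and 38.4, and 1330.1 and 1128, in this order. *Spdef* had 0.06 and 0.89 times, and its mean TPM were 24.7 and 12, so for this gene the TPM did not go with the fitted sign either.

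The day 43 samples also held leukocyte RNA, with summed marker levels of 6520.5, 29812 and 7178 TPM and 8872, 4929.7 and 3410.5 TPM, against 428 ± 153 TPM (SD, n = 4) in the standard diet day 0 group. *S100a8*, a neutrophil calcium-binding protein, was the most abundant of those 8 markers, and their part in the results was not tested.

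**Figure D2:**
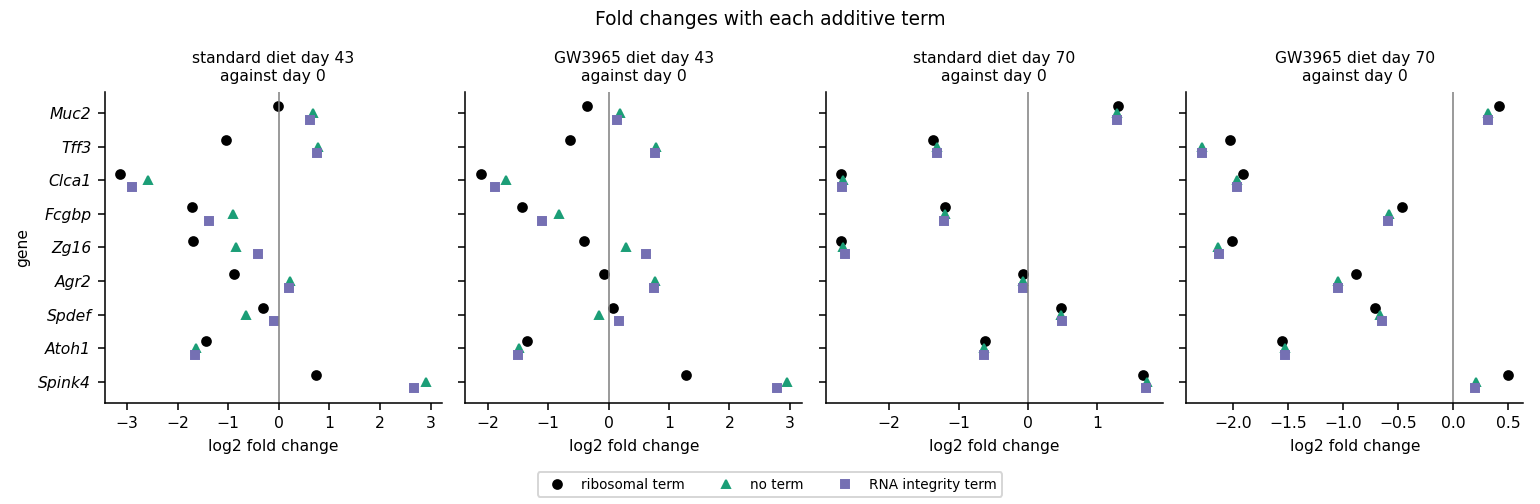
Log2 fold changes of the 9 genes at days 43 and 70 against day 0, with the ribosomal share as a term (black), with no term (green) and with the RNA integrity number as the term (purple). At day 43 *Spink4* moves from 0.73 to 2.92 with the standard diet when the ribosomal term is dropped, while the day 70 values lie close together.

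At day 70 with the standard diet *Muc2* and *Spink4* were higher than at day 0, and *Zg16*, *Clca1* and *Tff3* were lower. *Muc2* stood at 309, 146 and 201 CPM against 78.5 to 108 CPM at day 0. All 3 values exceed the day 0 range (log2 fold change 1.30, SE 0.38, edgeR adjusted *P* = 0.0132), and the first sample is the highest. *Spink4* stood at 573, 887 and 1012 CPM against 203 to 276 CPM, again without overlap (log2 fold change 1.66, SE 0.32, edgeR adjusted *P* = 0.000758). *Zg16* was at 1875, 851, 1694 and 1721 CPM at day 0 and at 173, 201 and 353 CPM at day 70. Its highest day 70 value was below its lowest day 0 value (log2 fold change −2.69, SE 0.74, edgeR adjusted *P* = 0.00919). *Clca1* was at 124, 92.5 and 254 CPM, below all day 0 values (log2 fold change −2.69, SE 0.67, edgeR adjusted *P* = 0.0045). *Tff3* was at 884, 784, 704 and 856 CPM at day 0 and at 239, 331 and 410.3 CPM at day 70, also without overlap (log2 fold change −1.36, SE 0.43, edgeR adjusted *P* = 0.0206).

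The remaining 4 genes did not pass the test at this day and diet. *Fcgbp* was at 808, 639.5, 652 and 978 CPM at day 0 and at 412, 201 and 395 CPM at day 70. By CPM its groups did not overlap, and its adjusted *P* lay next to the threshold (log2 fold change −1.20, SE 0.47, edgeR adjusted *P* = 0.0535). By TPM the groups overlapped (220 to 379 TPM at day 0 and 88.2 to 224.5 TPM at day 70). *Agr2* ranged over 375 to 784 CPM and 449 to 743 CPM (log2 fold change −0.07, SE 0.41, edgeR adjusted *P* = 0.915). *Atoh1* ranged over 24.9 to 32.8 CPM and 12.5 to 26.6 CPM (log2 fold change −0.62, SE 0.36, edgeR adjusted *P* = 0.19). *Spdef* ranged over 19.5 to 28.1 CPM and 26.3 to 43.3 CPM (log2 fold change 0.47, SE 0.30, edgeR adjusted *P* = 0.24).

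In all, 5 of 9 genes were called, where 33.2% of all genes were called. Of the 9, 2 were higher, beside 18.1% of all genes, and 3 were lower, beside 15.1%. The median of the 9 was −0.62 beside 0.03 over all genes. The *Muc2* call was lost without the first day 70 sample (0.86, adjusted *P* = 0.133), with day 0 matched by days of diet (1.24, 0.0853), on the pan-epithelial scale (0.98, 0.0994) and with length-scaled counts (1.02, 0.0505). The *Tff3* call was lost without the first day 70 sample (−1.28, adjusted *P* = 0.0783), without the second (−1.35, 0.0629) and with matched day 0 samples (−1.29, 0.0927). *Fcgbp* was called by DESeq2 (−1.22, adjusted *P* = 0.0212), and in edgeR without any 1 of 5 samples of other groups: the first (0.0395) or second (0.0465) standard diet day 22 sample, the second GW3965 diet day 43 sample (0.0463), or the first (0.0307) or second (0.0243) GW3965 diet day 70 sample. The edgeR test also called it with the RNA integrity number as the term (0.0482), with RLE size factors (0.0492), on the pan-epithelial scale (−1.46, 0.0163) and with only the samples of the groups compared (0.00856). The last of these also called *Spdef* (0.44, 0.0495).

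At day 70 with GW3965 *Clca1*, *Tff3* and *Atoh1* were lower than at day 0, and no gene was called higher. *Tff3* was at 1219, 744, 734 and 693 CPM at day 0 and at 43.8, 324 and 153 CPM at day 70. All day 70 values lay below all day 0 values (log2 fold change −2.03, SE 0.46, edgeR adjusted *P* = 0.00382). *Clca1* was at 46.8, 405 and 499.5 CPM at day 70, below its day 0 range of 709 to 2224 CPM (log2 fold change −1.91, SE 0.65, edgeR adjusted *P* = 0.0403). *Atoh1* was at 7.27, 26.1 and 13.6 CPM against 37.5 to 63.5 CPM at day 0, without overlap (log2 fold change −1.56, SE 0.38, edgeR adjusted *P* = 0.00631). *Zg16* was at 2257, 899, 488 and 553 CPM at day 0 and at 28.3, 543 and 144 CPM at day 70. The second day 70 sample lay within the day 0 range and the other 2 lay below it (log2 fold change −2.01, SE 0.74, edgeR adjusted *P* = 0.0561), and DESeq2 called the gene (−2.06, adjusted *P* = 0.0108).

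In the same samples *Agr2* was at 99.6, 544 and 202 CPM, with the second again within the day 0 range and the others below it (log2 fold change −0.88, SE 0.44, edgeR adjusted *P* = 0.158). *Spdef* was at 37.6, 32.2, 23.2 and 24.4 CPM at day 0 and at 11.7, 28.7 and 15.05 CPM, in the same pattern (log2 fold change −0.71, SE 0.32, edgeR adjusted *P* = 0.116). *Spink4* was at 92.5, 391 and 313 CPM, with 2 samples above the day 0 range and the first below it (log2 fold change 0.50, SE 0.32, edgeR adjusted *P* = 0.288). *Muc2* (92.9, 196 and 103 CPM) and *Fcgbp* (251, 1153 and 491 CPM) overlapped with day 0 and had log2 fold changes of 0.42 (SE 0.40) and −0.47. By CPM the first sample was lowest of the 3 for all 9 genes, and the second was highest for all but *Clca1*.

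With GW3965, 3 of 9 genes were called, all lower, where 21.8% of all genes were called and 7.43% were called lower. The median of the 9 was −0.88 beside 0.10 over all genes. The set of called genes differed without the second day 70 sample, the one at the day 0 level of stratified epithelium markers. Without it *Zg16* (−3.54, adjusted *P* = 0.00216), *Agr2* (−1.83, 0.00182) and *Spdef* (−1.17, 0.0137) were called lower, and *Clca1* was not called (−2.16, 0.0502). Without the first day 70 sample *Spink4* was called higher (0.86, 0.0230) and *Clca1* was not called (−1.44, 0.0941). *Clca1* was also not called without the third GW3965 diet day 22 sample (0.0502), the third day 43 sample (0.0563), or the first (−1.45, 0.133) or second (0.0620) day 0 sample after 22 days of diet. Nor was it called in edgeR with no expression filter (−1.94, 0.0641). *Zg16* was called without the first standard diet day 43 sample (0.0497), the second GW3965 diet day 43 sample (0.0404) or the first GW3965 diet day 0 sample after 43 days (0.0468).

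Fitted on the samples of the GW3965 diet day 70 and day 0 groups alone, no gene of the 9 was called and only 83 of 15513 genes were called in all, with *Tff3* at −2.77 (adjusted *P* = 0.272), *Clca1* at −1.80 (0.489) and *Atoh1* at −2.02 (0.247). With day 0 matched by days of diet, *Atoh1* was at −1.36 (0.0621) and *Clca1* at −1.15 (0.326). The pan-epithelial scale raised the median of all genes by 0.88 in this comparison. On it *Atoh1* was not called (−0.99, adjusted *P* = 0.0563), *Zg16* was called lower (−1.66, 0.0359), and *Muc2* (1.24, 0.0222) and *Spink4* (0.98, 0.0258) were called higher. *Zg16* was also called lower with no term (−2.14, 0.0364) and with the RNA integrity number as the term (−2.13, 0.0350). Each diet was compared with its own day 0 samples, which serve all its days. The comparisons of days 22, 43 and 70 with day 0 within a diet therefore share those 4 samples.

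**Figure D3:**
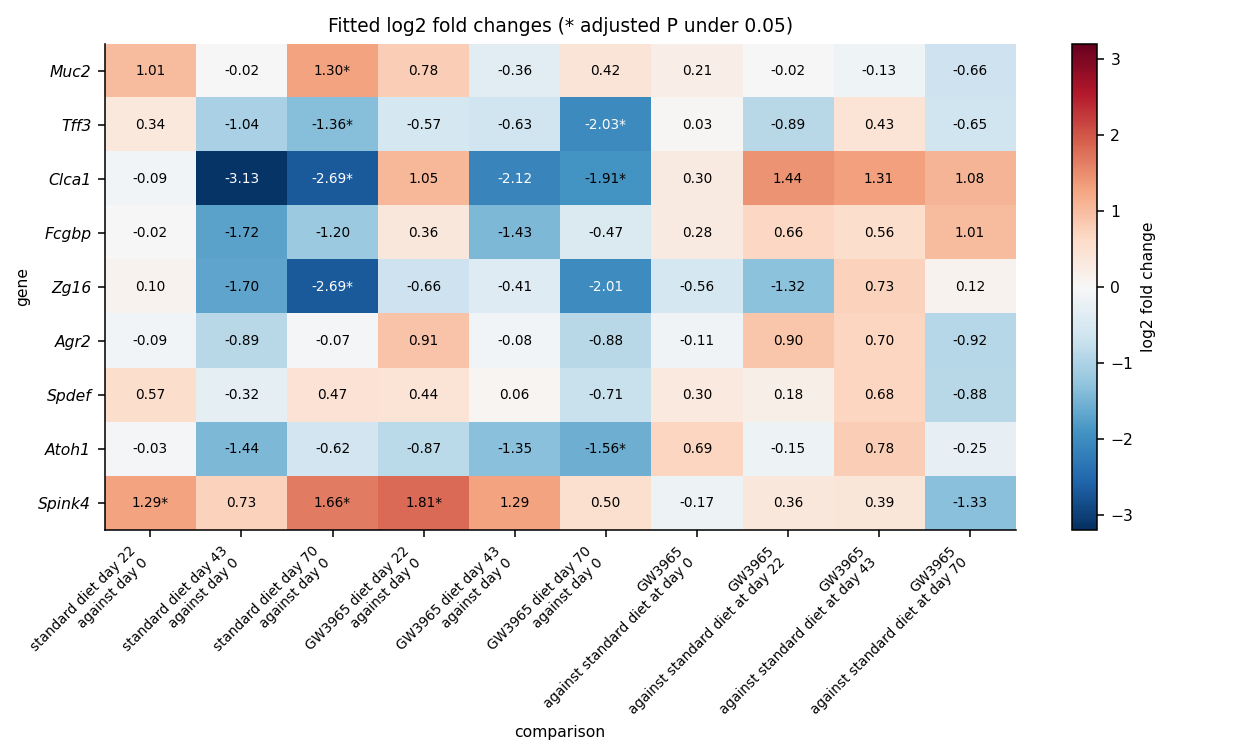
Fitted log2 fold changes (colour and printed value) of the 9 genes (vertical) in 6 comparisons with day 0 and 4 comparisons of the diets (horizontal), with the ribosomal term; a star marks an adjusted *P* under 0.05. At day 70 *Clca1* (−2.69 and −1.91) and *Tff3* (−1.36 and −2.03) are starred with both diets, and no comparison of the diets is.

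In bulk tissue fewer goblet cells and less RNA per goblet cell cannot be told apart, so marker levels of the other tissue parts are given beside these results. Pan-epithelial genes summed to 8342 ± 2409 TPM (SD, n = 4) at day 0 and 10550.0 ± 4759 TPM (SD, n = 3) at day 70 with the standard diet. With GW3965 the sums were 8821 ± 1381 TPM (SD, n = 4) at day 0 and 2369, 9016 and 8829 TPM in the day 70 samples. The first of these, lowest by CPM in all 9 mucus genes, was also lowest here. Of 10 pan-epithelial genes, *Krt18*, a keratin of simple epithelia, was called higher with the standard diet (log2 fold change 1.49, SE 0.37, edgeR adjusted *P* = 0.00481). *Cdx1*, an intestinal transcription factor, was called lower with GW3965 (log2 fold change −1.47, SE 0.41, edgeR adjusted *P* = 0.0149). Beside these calls, 18.1% of all genes were called higher at day 70 with the standard diet and 7.43% lower with GW3965. *Krt8* was the most abundant pan-epithelial gene. At day 43 their sums were 2946, 1975 and 3018 TPM with the standard diet and 4004, 2510.2 and 4489 TPM with GW3965.

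Smooth muscle markers had lower sums at day 70, with 9374 ± 4207 TPM (SD, n = 4) and 1885 ± 803 TPM (SD, n = 3) at days 0 and 70 of the standard diet and 8417 ± 3234 TPM (SD, n = 4) and 3544 ± 1329.9 TPM (SD, n = 3) with GW3965. All 8 were called lower with the standard diet and 2 of 8 with GW3965, where 15.1 and 7.43% of all genes were called lower. *Tagln* was the most abundant. Of 8 leukocyte genes, 6 and 7 were called higher at day 22 with the standard and GW3965 diets, where 6.19 and 9.08% of all genes were called higher. At day 70, where 33.2 and 21.8% of all genes were called in either direction, 3 were called higher and 1, the B cell receptor gene *Cd79a*, lower with the standard diet, and 5 were called higher with GW3965. All 8 stratified epithelium genes were called higher at day 70 with each diet, and 6 of 8 at day 43 with GW3965, where 0.932% of all genes were called. *Krt6a* and *Sprr3* were at 0 in every day 0 sample and passed the expression filter only through later samples. The calls of these genes therefore partly restate the filter. Of 6 fibroblast genes, 2 were called higher at day 22 with the standard diet, 1 higher and 1 lower at day 70, and 3 higher at day 70 with GW3965. The part of these differences in the mucus gene results was not tested.

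**Figure D4:**
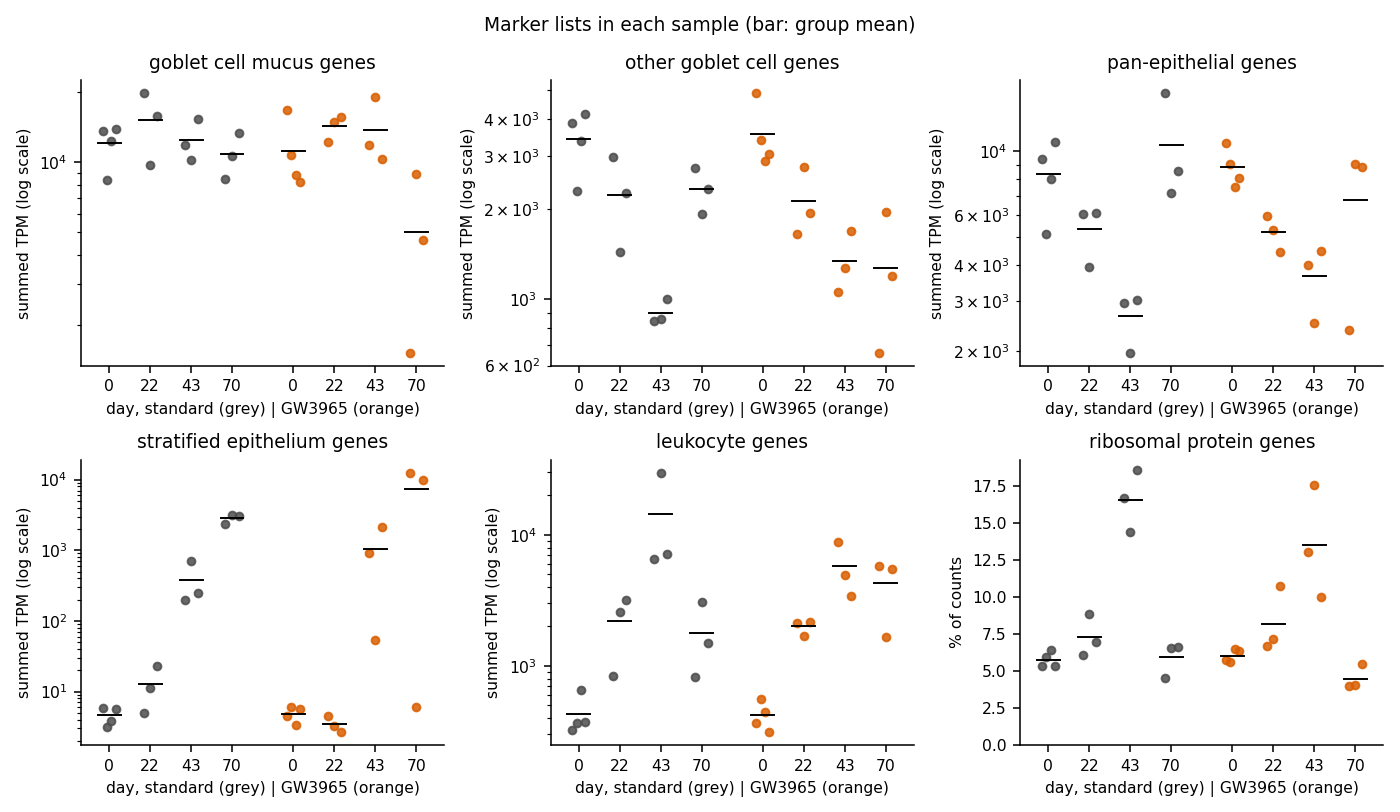
Summed TPM (log scale) of the 9 mucus genes and of marker lists in every sample, by day and diet, with a bar at each group mean, and the ribosomal share of counts. The sum of stratified epithelium markers is 6.00 TPM in the second GW3965 diet day 70 sample and 12559 TPM in the first.

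Other epithelial lineages were described beside the 33.2 and 21.8% of all genes called in either direction at day 70 with the standard and GW3965 diets. Absorptive colonocyte genes were called lower in 5 of 10 cases with each diet, and 1 was called higher with GW3965. *Car4*, a carbonic anhydrase of surface colonocytes, fell from 838 ± 251 (SD, n = 4) to 13.4 ± 4.70 CPM (SD, n = 3) with the standard diet (log2 fold change −5.97, SE 0.86, edgeR adjusted *P* = 0.000104). *Slc26a3*, their chloride-bicarbonate exchanger, fell from 644 ± 242 (SD, n = 4) to 16.4 ± 3.13 CPM (SD, n = 3). At day 22, where 7.75 and 12.5% of all genes were called in either direction, 2 of the 10 were lower with each diet. All 6 Paneth cell genes, which normal colon hardly expresses, were called higher at day 70 with both diets, after 2 and 3 of 6 at day 22. Their sums were 1198, 8297 and 7273 TPM with the standard diet and 314, 537 and 1416 TPM with GW3965, against 34.5 ± 16.4 TPM (SD, n = 4) at day 0 of the standard diet. In those day 0 samples the Paneth cell genes *Defa24*, *Defa17* and *Mmp7* reached at most 0.189, 0.0472 and 0.468 CPM. They passed the expression filter through later samples, so their calls partly restate the filter. All 8 stem and proliferation genes were called higher at day 70 with the standard diet and 3 of 8 with GW3965. Both counts include *Olfm4*, which was at most 0.0497 CPM in the day 0 samples. It passed the expression filter through later samples, so its calls partly restate the filter. *Lgr5*, the marker of crypt base stem cells, rose from 5.72 ± 0.62 (SD, n = 4) to 58.1 ± 17.5 CPM (SD, n = 3) with the standard diet (log2 fold change 3.31, SE 0.74, edgeR adjusted *P* = 0.00235).

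Of 8 enteroendocrine genes, 4 were called lower at day 70 with the standard diet, and 2 lower and 1 higher with GW3965. *Insl5*, a hormone of colonic L cells, fell with the standard diet (log2 fold change −2.97, SE 0.66, edgeR adjusted *P* = 0.00217) and with GW3965 (log2 fold change −2.33, SE 0.65, edgeR adjusted *P* = 0.015). Of 7 tested tuft cell genes, 2 were called higher and 1 lower at day 70 with the standard diet, and 1 higher with GW3965. *Avil*, an actin-binding protein of tuft cells, rose with the standard diet (log2 fold change 4.05, SE 0.57, edgeR adjusted *P* = 8.61e-05). *Dclk1*, a kinase widely used as a tuft cell marker, fell from 10.9 ± 1.22 (SD, n = 4) to 4.01 ± 0.488 CPM (SD, n = 3) in the same comparison (log2 fold change −1.43, SE 0.27, edgeR adjusted *P* = 0.000683). At day 22, 1 tuft cell gene was called higher with the standard diet, and 2 tuft cell genes and 1 enteroendocrine gene with GW3965, beside 6.19 and 9.08% of all genes.

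Between consecutive days edgeR with the ribosomal term called none of the 9 genes. From day 22 to day 43 with the standard diet, edgeR called 0 of 9 and 0% of all genes. Of the 9, 1 had an unadjusted *P* under 0.05, beside 3.21% of all genes, and DESeq2 called 0, beside 36 of 17063. From day 43 to day 70 edgeR called 0 of 9 and 0% of all genes, with 0 of 9 and 9.37% under 0.05 unadjusted. DESeq2 called 0 of 9 and 13 of 17063 genes. With GW3965 edgeR called 0 of 9 and 0.0996% of all genes from day 22 to day 43. Of the 9, 2 were under 0.05 unadjusted, beside 5.62% of all genes, and DESeq2 called 1, beside 119 of 17063. From day 43 to day 70 edgeR called 0 of 9 and 0% of all genes, with 0 of 9 and 5.60% under 0.05 unadjusted. DESeq2 gave adjusted *P* values for only 1515 of the 17063 genes in this comparison. It called 0 of the 7 mucus genes that had one, and *Spdef* and *Atoh1* had none. The gene DESeq2 called from day 22 to day 43 was *Clca1*, which stood at 1370.1, 4119.5 and 2907 CPM at day 22 and 219, 573 and 353 CPM at day 43 with GW3965. All 3 day 43 samples were lower (−3.17, SE 0.94, edgeR adjusted *P* = 0.367; −3.19, DESeq2 adjusted *P* = 0.0196).

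*Spink4* changed direction with the term in the standard diet comparisons. It did not from day 43 to day 70 with GW3965 (log2 fold change −0.79 with the term and −2.74 without it). From day 22 to day 43 with GW3965 the fitted value with the term was −0.52. There the mean CPM of day 43 was 1.55 times that of day 22, and the groups overlapped. With the standard diet, the fitted value from day 22 to day 43 was a log2 fold change of −0.56 with the ribosomal term and 1.37 without it (adjusted *P* = 0.0188). From day 43 to day 70 it was 0.93 with the term and −1.19 without it (adjusted *P* = 0.0266). By CPM the 3 standard diet day 43 samples were above all other standard diet samples. From low to high the group means of *Spink4* were 230.0 ± 49.5 CPM (SD, n = 4) and 249 ± 31.7 CPM (SD, n = 4) for the GW3965 and standard diets at day 0, then 266 ± 155 CPM (SD, n = 3) for the GW3965 diet at day 70. They went on with 728 ± 167 CPM (SD, n = 3) and 824 ± 226 CPM (SD, n = 3) for the standard diet at days 22 and 70 and 1146 ± 477 CPM (SD, n = 3) for the GW3965 diet at day 22. The highest were 1778 ± 1026 CPM (SD, n = 3) and 1882 ± 529.9 CPM (SD, n = 3) for the GW3965 and standard diets at day 43. Neighbours in this order overlapped in range, except the GW3965 diet at day 70 and the standard diet at day 22.

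The diets were compared within each day. At day 0 edgeR called 0 of 9 genes and 0.0293% of all genes, and DESeq2 called 0 of 9 and 28 of 16401 genes. Of the 9, 1 had an unadjusted *P* under 0.05, beside 1.93% of all genes. That gene was *Atoh1*, at 24.9 to 32.8 CPM with the standard diet and 37.5 to 63.5 CPM with GW3965. All 4 GW3965 diet values were higher (log2 fold change 0.69, SE 0.33, edgeR adjusted *P* = 1). At day 22 edgeR called 0 of 9 and 0.135% of all genes, and DESeq2 called 0 of 9 and 306 of 16070 genes. Of the 9, 1 was under 0.05 unadjusted, beside 9.98% of all genes. That gene was *Clca1*, at 1526, 463 and 953 CPM with the standard diet and 1370.1, 4119.5 and 2907 CPM with GW3965. Its groups overlapped and its mean was 2.85 times higher with GW3965 (log2 fold change 1.44, SE 0.67, edgeR adjusted *P* = 0.483). Other genes did not overlap between the diets. *Agr2* ranged over 411 to 763 CPM with the standard diet and 959.9 to 1648 CPM with GW3965, and *Zg16* over 991 to 2823 CPM and 586 to 869 CPM. *Agr2* was thus higher and *Zg16* lower in all 3 GW3965 diet samples, with log2 fold changes of 0.90 (SE 0.45, edgeR adjusted *P* = 0.517) and −1.32 (SE 0.75, adjusted *P* = 0.582).

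At day 43 edgeR called 0 of 9 and 0.0293% of all genes, with 0 of the 9 and 8.65% of all genes under 0.05 unadjusted. DESeq2 called 0 of 9 and 68 of 17063 genes. *Atoh1* was at 7.76 to 9.73 CPM with the standard diet and 14.5 to 19.01 CPM with GW3965. *Clca1* was at 133 to 209.8 CPM and 219 to 573 CPM, and *Spdef* at 9.42 to 21.1 CPM and 23.3 to 28.5 CPM. These 3 genes were higher in all 3 GW3965 diet samples, with log2 fold changes of 0.78 (SE 0.42, edgeR adjusted *P* = 0.603), 1.31 (SE 0.70, adjusted *P* = 0.605) and 0.68 (SE 0.36, adjusted *P* = 0.598). Here and elsewhere a lack of overlap only describes the values of the named genes. The share of all genes without overlap is not given. At day 70 edgeR called 0 of 9 and 1.85% of all genes. Of the 9, 2 were under 0.05 unadjusted, beside 18.7% of all genes, and DESeq2 called 1, beside 1161 of 17063 genes. The gene called by DESeq2 was *Spink4*, whose 3 GW3965 diet values, at most 391 CPM, lay below the 3 standard diet values, at least 573 CPM (log2 fold change −1.33, SE 0.35, edgeR adjusted *P* = 0.0558; DESeq2 adjusted *P* = 0.00584). The edgeR test called it with no term (−1.63, 0.0433), with the integrity number as the term (−1.62, 0.0362), and without the first (0.0418) or second (0.0494) standard diet day 43 sample. Without the second GW3965 diet day 70 sample edgeR called 760 of 17455 genes, against 315 of 17063 with it, and 4 of the 9, all lower with GW3965: *Spink4* (−1.80, 0.0152), *Agr2* (−1.86, 0.0176), *Spdef* (−1.32, 0.0362) and *Tff3* (−1.54, 0.0386). On the pan-epithelial scale, which raised the median of all genes by 1.00, only *Fcgbp* was called and it was higher with GW3965 (1.74, 0.0280), where 1698 of the 17063 genes were called.

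The median log2 fold change of the 9 genes between diets was 0.21, 0.18, 0.68 and −0.65 at days 0, 22, 43 and 70, beside −0.02, −0.01, −0.03 and 0.02 over all genes. Whether the diet effect at a day differed from that at day 0 was tested as well. For day 22 edgeR called 0 of 9 and 0.0234% of all genes, with 0 of 9 and 6.3% under 0.05 unadjusted. For day 43 it called 0 of 9 and 0% of all genes, with 0 of 9 and 4.4% under 0.05 unadjusted. For day 70 it called 0 of 9 and 0% of all genes, with 2 of 9 and 12.7% under 0.05 unadjusted. DESeq2 called 0 of 9 for each day, beside 103, 11 and 307 of 17063 genes. The 2 genes under 0.05 unadjusted for day 70 were *Spdef* (log2 fold change −1.18, SE 0.44, edgeR adjusted *P* = 0.267) and *Spink4* (log2 fold change −1.16, SE 0.46, edgeR adjusted *P* = 0.307).

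A wider list of 20 other goblet cell genes was described the same way. The counts of this and the following lists stand beside 33.2% (18.1% higher, 15.1% lower) and 21.8% of all genes called at day 70 with the standard and GW3965 diets, and 7.75 and 12.5% at day 22. At day 70, 5 of 20 were called lower with the standard diet and 8 of 20 with GW3965. Their medians were −0.44 and −1.11, beside 0.03 and 0.10 over all genes. *Klk1*, tissue kallikrein and the most abundant of them, fell from 708 ± 185 (SD, n = 4) to 131 ± 35.4 CPM (SD, n = 3) with the standard diet (log2 fold change −2.43, SE 0.50, edgeR adjusted *P* = 0.00127) and from 788 ± 372 (SD, n = 4) to 85.9 ± 68.3 CPM (SD, n = 3) with GW3965 (log2 fold change −3.26, SE 0.53, edgeR adjusted *P* = 0.00034). *Best2*, a chloride and bicarbonate channel of goblet cells, fell from 77.0 ± 16.8 (SD, n = 4) to 24.1 ± 5.97 CPM (SD, n = 3) and from 96.1 ± 16.999 (SD, n = 4) to 17.01 ± 8.04 CPM (SD, n = 3). *Guca2a*, which encodes guanylin, fell with GW3965 (log2 fold change −1.72, SE 0.44, edgeR adjusted *P* = 0.00817). At day 22, 3 of 20 were called lower with GW3965: *Klk1* (log2 fold change −1.78), *Best2* (−1.58) and the sulfhydryl oxidase gene *Qsox1* (−0.64). Between diets at day 70, 1 of 20 was called, lower with GW3965.

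Of the enzymes that attach and extend the sugars of mucins, 16 were tested. At day 70 with the standard diet 3 were called higher and 3 lower, a share near that of all genes, and 2 higher and 3 lower with GW3965. *Galnt3*, which starts O-glycan chains, rose with the standard diet (log2 fold change 1.47, SE 0.39, edgeR adjusted *P* = 0.0071). *Gcnt4*, a branching enzyme, rose with the standard diet (log2 fold change 2.74, SE 0.46, edgeR adjusted *P* = 0.000314) and with GW3965 (log2 fold change 1.48, SE 0.47, edgeR adjusted *P* = 0.0283). *Gcnt1*, also a branching enzyme, fell with the standard diet (log2 fold change −0.99, SE 0.36, edgeR adjusted *P* = 0.0382) and with GW3965 (log2 fold change −1.50, SE 0.37, edgeR adjusted *P* = 0.00715). At day 22, *St3gal1*, a sialyltransferase, was the 1 gene called with the standard diet (log2 fold change 1.40, SE 0.30, edgeR adjusted *P* = 0.00773), and *B4galnt3* the 1 called with GW3965 (log2 fold change −1.26, SE 0.35, edgeR adjusted *P* = 0.0215). The medians at day 70 were 0.32 and −0.36.

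Genes for folding in the endoplasmic reticulum, where Muc2 is assembled, numbered 16. At day 70 with the standard diet 6 were called higher and 1 lower. *P4hb*, a protein disulphide isomerase, rose from 541 ± 89.6 (SD, n = 4) to 1017 ± 77.8 CPM (SD, n = 3) (log2 fold change 0.90, SE 0.18, edgeR adjusted *P* = 0.00104). *Hyou1*, a chaperone, rose from 67.7 ± 13.6 (SD, n = 4) to 128 ± 23.1 CPM (SD, n = 3) (log2 fold change 0.92, SE 0.23, edgeR adjusted *P* = 0.00516). *Ddit3*, a transcription factor of the stress response, fell (log2 fold change −1.12, SE 0.29, edgeR adjusted *P* = 0.0059). With GW3965 3 of 16 were called higher at day 22, *Sdf2l1* (log2 fold change 1.36), *Manf* (1.27) and *Creld2* (1.08).

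Regulators of the secretory lineage, 8 besides *Atoh1* and *Spdef*, gave few calls. *Klf4*, needed for goblet cell differentiation in the colon, fell at day 70 with the standard diet (log2 fold change −0.83, SE 0.28, edgeR adjusted *P* = 0.0274). *Foxa2*, a forkhead factor, fell at day 70 with GW3965 (log2 fold change −1.46, SE 0.40, edgeR adjusted *P* = 0.0127), and *Gfi1*, a repressor downstream of Atoh1, rose at day 22 with GW3965 (log2 fold change 1.20, SE 0.34, edgeR adjusted *P* = 0.0255). Of 8 Notch pathway genes, 1 was called higher and 1 lower at day 70 with the standard diet, a share below the 33.2% of all genes, and 3 higher with GW3965. The ligand gene *Jag1* rose with the standard diet (log2 fold change 0.99, SE 0.37, edgeR adjusted *P* = 0.0455) and with GW3965 (log2 fold change 2.64, SE 0.39, edgeR adjusted *P* = 0.000156). The ligand gene *Dll1* fell with the standard diet (log2 fold change −0.58, SE 0.22, edgeR adjusted *P* = 0.0492). The target gene *Hes1*, a repressor of *Atoh1*, was the 1 gene called at day 22 with GW3965, where *Hes1* fell (log2 fold change −0.82, SE 0.26, edgeR adjusted *P* = 0.0395). *Atoh1* was at 19.7 to 26.7 CPM against 37.5 to 63.5 CPM there and was not called (log2 fold change −0.87, SE 0.38, edgeR adjusted *P* = 0.145). A relation between these genes was not tested.

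Of the other mucins and trefoil peptides, 12 of 14 were in the files and 9 were tested. With the standard diet 2 were called higher at day 22 and 5 at day 70, and with GW3965 2 were called higher at day 22 and 4 higher and 1 lower at day 70. In the standard diet day 0 samples *Tff1*, *Muc6* and *Muc20* reached at most 0.0471, 0.213 and 0.426 CPM. They passed the expression filter through other groups, where they were higher, so these counts partly restate the filter. *Muc1*, a mucin anchored in the membrane, rose from 4.93 ± 2.40 (SD, n = 4) to 40.8 ± 8.21 CPM (SD, n = 3) with the standard diet and from 9.41 ± 2.08 (SD, n = 4) to 35.3 ± 21.7 CPM (SD, n = 3) with GW3965. *Muc6*, a gel-forming mucin of the stomach, was at 0 to 0.213 CPM at day 0 and 0.315 to 2.48 CPM at day 70 with the standard diet. *Tff1*, a gastric trefoil peptide, was listed at 0 in the GW3965 diet day 0 samples and stood at 0.358 to 0.777 CPM at day 70. *Muc3*, an anchored mucin, was the 1 gene called lower (log2 fold change −1.87, SE 0.57, edgeR adjusted *P* = 0.0247).

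The 9 genes did not all vary together. Over the 26 samples, the Pearson correlation of log2 CPM for the 36 pairs ran from −0.38, for *Atoh1* and *Spink4*, to 0.91, for *Tff3* and *Zg16*, with a median of 0.51, and 3 pairs were below 0. After subtraction of group means the range was 0.39, for *Spdef* and *Spink4*, to 0.91, for *Tff3* and *Spink4*, with a median of 0.73. These are descriptions over samples that share tissue composition and RNA quality.

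The genes most like the mean of the 9 were ranked among 10613 genes with a mean of at least 10 CPM. Over the 26 samples they were *Tpsg1* (*r* = 0.95), *Grtp1* (0.94), *BC030870* (0.92), *2010003K11Rik* (0.92), *Ms4a8a* (0.90), *Ppp1r14d* (0.90), *Sval1* (0.90), *Entpd8* (0.89), *Ms4a12* (0.89) and *Neurl3* (0.88). By deviations from group means they were *Grtp1* (0.94), *Tpsg1* (0.92), *Tmem170* (0.92), *Ppp1r14d* (0.92) and *Klk1* (0.90). *Tpsg1* and *Klk1* stand in the list of other goblet cell genes, and *Ms4a8a* in that of absorptive colonocyte genes.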

How the data were processed

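The authors deposited, for each sample, a table of 119414 transcripts with effective length, estimated counts and TPM. The submitters' notes name kallisto and GRCm38, and the version of kallisto was not given in the sources used here. Transcripts were matched to GENCODE M21 genes (116728 matched), and 0.615 to 0.999% of counts were on unmatched transcripts. Estimated counts were summed per gene and rounded for the tests, and TPM were summed per gene.

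Tests used R 4.3.3 and edgeR 4.0.16: filterByExpr over the 8 groups, TMM factors, and a robust quasi-likelihood fit of all 26 samples with 1 mean per group and 1 additive term, the centred percentage of counts on 88 ribosomal protein genes. *P* values were adjusted by the Benjamini-Hochberg method over all 17063 tested genes within each contrast, and genes under 0.05 are called. DESeq2 1.42.0 was the second tool. CPM are normalised by TMM, and correlations used log2 CPM with a prior count of 2 and genes with a mean of at least 10 CPM.

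Alternatives were no term, the RNA integrity number as the term, DESeq2, RLE size factors, no filter, length-scaled TPM counts, a library scale from pan-epithelial genes, only the samples of the groups compared, day 0 matched by days of diet, a replicate block, and leaving out each sample. Leaving out the 6 day 43 samples was added after the data were seen.

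Genes are named by this rule: all 9 mucus genes; of the other lists, counts and up to 4 called genes with the largest absolute log2 fold change at day 70 and up to 3 at day 22; the 10 genes most like the mean of the 9, and 5 on deviations from group means; and *Abca1*, *Abcg1* and *Srebf1* for the diet labels. The 9 genes and all lists were chosen with earlier results of these data known. The labels number the samples of a group as replicates without naming mice, so *P* values measure the spread between these samples. The paper counts mice per timepoint for these libraries, while its reporting summary states that biological replicates were pooled into a sample for bulk sequencing. Whether a sample is a single mouse or a pool was not settled here.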

Additional observations from a re-analysis of the deposited data

Results flagged for a closer look

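In the 2 groups of 4 samples, the gap between the highest or lowest sample and its nearest neighbour was compared with the range of the group for each of the 9 genes, by Dixon's criterion. Chance picks out about 1 in 20 groups, and 18 groups of values were compared. These are not independent, because the 9 genes come from the same samples and correlate after subtraction of group means (median 0.73). The number of times the criterion was met therefore cannot be set against that rate. The criterion was met 3 times, each time by the first GW3965 diet day 0 sample after 22 days of diet. This sample was the highest of its group for *Tff3* (1219 CPM), *Fcgbp* (1387 CPM) and *Atoh1* (63.48 CPM).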

How the results depend on the processing

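Counts of called genes among the 9 that differ from the counts above are given by comparison, and the cause was not tested. Beside each count stands the number of all genes called in that setting, in brackets, out of 17063 unless stated. Standard diet against day 0, with 1322, 0 and 5673 genes in the main fit at days 22, 43 and 70: at day 22, 2 on the pan-epithelial scale (724), 2 with only the samples of the groups compared (41 of 15586), 0 with matched day 0 samples (592 of 17482). At day 43 they were 3 with no term (9374) and 3 with the RNA integrity number (6680). At day 70 they were 3 with matched day 0 samples (2339 of 17482), 4 with length-scaled counts (4970 of 17215), 6 by DESeq2 (6370), 6 with the RNA integrity number (6119), 6 with RLE size factors (5638) and 7 with only the samples compared (6474 of 15624).

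GW3965 diet against day 0, with 2140, 159 and 3727 genes in the main fit: at day 22, 2 on the pan-epithelial scale (965) and 2 with only the samples compared (4059 of 15522); at day 43, 3 with no term (7719) and 3 with the RNA integrity number (7914). At day 70 they were 5 on the pan-epithelial scale (5716), 4 by DESeq2 (4537), 4 with no term (3667), 4 with the RNA integrity number (4674), 2 with no filter (3075 of 26963), 0 with only the samples compared (83 of 15513) and 1 with matched day 0 samples (1757 of 17482). They were 5 without the 6 day 43 samples (4269 of 16705), an alternative chosen after seeing the data.

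Between consecutive days with the standard diet, 4 genes were called at day 43 against 22 with no term, and at day 70 against 43, 5 with no term and 1 with the RNA integrity number, where 5755, 8458 and 7537 of the 17063 genes were called. With GW3965, 1 was called at day 43 against 22 by DESeq2 (119) and 1 with only the samples compared (164 of 15577), and 4 at day 70 against 43 with no term and 4 with the RNA integrity number, where 6679 and 7214 genes were called. Between diets at day 70, 1 was called with no term (530), 1 with the RNA integrity number (1021), 1 by DESeq2 (1161) and 1 on the pan-epithelial scale (1698), against 0 in the main fit (315). Leaving out 1 sample gave 0 to 1 at day 22 (390 to 2112) and 3 to 6 at day 70 (4180 to 7093) of the standard diet. It gave 1 at day 22 (837 to 3248) and 2 to 5 at day 70 (2601 to 4987) of the GW3965 diet, 0 to 4 between diets at day 70 (6 to 1456), and 0 elsewhere, with 17017 to 17491 genes tested. With a replicate block the counts were 1, 0 and 5 at days 22, 43 and 70 of the standard diet (1225, 0 and 5075) and 1, 0 and 3 of the GW3965 diet (1960, 104 and 3083). Replicate numbers do not pair samples: over 13 pairs the mean correlation of residuals was −0.066 (−0.37 to 0.20), and 2 were above 0.1.

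The direction of *Spink4* reversed with no term, from −0.56 to 1.37 at day 43 against 22 and from 0.93 to −1.19 at day 70 against 43 of the standard diet. The pan-epithelial scale moved the median log2 fold change of all genes against day 0 by 0.39, 0.69 and −0.19 at days 22, 43 and 70 of the standard diet and by 0.33, 0.42 and 0.88 of the GW3965 diet. Between days 22 and 43 and days 43 and 70 it moved it by 0.30 and −0.87 with the standard diet, and by 0.46 from day 43 to 70 with GW3965. Between diets it moved it by −0.14, −0.37 and 1.00 at days 22, 43 and 70, and the change of the diet effect by −0.28 at day 43 and 1.08 at day 70. With only the samples compared, the median at day 70 of the GW3965 diet moved by −0.18.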
